A study of Oncorhynchus kisutch with 226 samples.

Results

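Of 16802 liver array probes measured on at least 80% of 226 arrays, 146 had higher mean log2 ratios in coho salmon caught at sea in summer, fall and winter than in parr, smolts and fish caught at sea in spring. They were chosen by their 6 stage means: the means were sorted, the widest gap between neighbours had to be at least 0.4 on the log2 scale, and it had to place the 3 later ocean stages above the other 3. The full table held 43567 probes. The same rule turned around, with the 3 later ocean stages below, found 59 probes, and the rule with all 4 ocean stages above parr and smolts found 144. Because the stage means chose the members, every value that sets stages against each other is a description without a test.

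Coho salmon (Oncorhynchus kisutch) hatch in rivers, live there as parr, turn into smolts that can live in salt water, and grow to adult size at sea. The liver makes most plasma proteins, stores glycogen and fat, handles cholesterol and bile, and answers growth hormone by releasing insulin-like growth factors, so its transcripts change with feeding, growth and season. In salmon the first months at sea follow the shift from river insects to marine prey and are known as a time of fast growth and of heavy mortality.

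Each array carried liver RNA of 1 fish in one dye and a common reference, pooled from the liver RNA of every fish, in the other. A value is thus a log2 ratio between fish and pool. The numerator was not stated by the submitters. Fish over pool is the likely reading, and with the opposite numerator each "higher" would read "lower". Parr were 8 hatchery fish of the Chilliwack River of 2008, with a fork length (snout to tail fork) of 5.10 ± 0.262 cm (SD). The 54 smolts, of 11.2 ± 1.38 cm, were 8 wild Chilliwack fish of 2008 and, from 2009, 10 hatchery and 10 wild Capilano, 9 hatchery Chehalis, 10 hatchery Puntledge and 7 wild Salmon River fish. Spring fish were 14 wild fish of 11.3 ± 1.07 cm, all taken in 2009 from the south of the Strait of Georgia. The 67 summer fish (17.9 ± 2.18 cm) and 71 fall fish (25.3 ± 3.05 cm) were hatchery and wild fish of 2008 and 2009. The area labels SoG and WCVI are taken here as the Strait of Georgia and the west coast of Vancouver Island. They gave 57 summer and 61 fall fish in the Strait and 10 of each on the west coast. The 12 winter fish of 2009 measured 34.7 ± 2.13 cm. Of them 7 were from the west coast (5 hatchery, 2 wild) and 5 from the middle Strait (1 hatchery, 4 wild). Fish of later stages were therefore also longer, and no fish was sampled more than once. Most fish also carried a stock label, and the mix of stocks differed between stages and areas.

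The arrays lay on 60 slides, and parr shared no slide with another stage, so for them slide and stage cannot be told apart. Between 12760 and 30826 probes were measured per array, and winter arrays had more (mean 25538) than those of the other stages (means from 21023 to 22014). The number of arrays limits the precision. The files name probes by array column and row and do not pair them with genes, sequences or genome positions. No gene, pathway or cell type is therefore named, and the liver label could not be checked against marker genes. No member lay next to another on the array.

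Among the 20 Capilano smolts, 2 arrays did not resemble their own origin over the probes that were no members. Hatchery smolt 23 had a median correlation of 0.28 with the other hatchery smolts and of 0.36 with the wild ones. Wild smolt 26 had 0.01 with the other wild smolts and 0.66 with the hatchery ones. The other 18 had between 0.51 and 0.76 with their own origin and between -0.16 and 0.11 with the other. Capilano results are given with and without these 2 fish, called here by their order number. Without them the rule found 143 probes, of which 142 were among the 146.

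The gap that chose the members ran from 0.40 to 3.16, with a median of 0.61, or 1.53-fold. It was at least 0.5 in 107 members and at least 1 in 24. Just inside the threshold were gaps of 0.4004 and 0.4001, and just outside it were 0.395 and 0.394. The median member mean was -1.0 for parr, -0.79 for smolts and -0.91 for spring fish. It was 0.02 for summer, 0.10 for fall and 0.37 for winter fish. The median member thus stood below the pool in the river and in spring, near it in summer and above it in winter.

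Of the steps between neighbouring stages, that from spring to summer was shared by all members, as the rule requires. Its differences ran from 0.40 to 3.16, with a median of 0.90, against 0.04 over all probes. Between spring and smolts, fish of about the same length, 97 members were lower in spring and 49 higher, with a median difference of -0.16. Between smolts and parr, 113 were higher in smolts and 33 lower, with a median of 0.26. Within the Chilliwack stock of 2008 alone, 76 of 146 members were higher in smolts than in parr, with a median difference of 0.02. Each member must have a lowest stage: it was parr for 82 members, spring for 46 and smolts for 18. Smolts formed the lower edge of the gap in 82 members, spring fish in 38 and parr in 26.

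After summer the members split in direction. From summer to fall 94 were higher and 52 lower, with a median difference of 0.07, and 15 differed by at least 0.4. From fall to winter 121 were higher and 25 lower, with a median of 0.28. Winter held the highest mean of 114 members, fall of 21 and summer of 11.

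C262R149 had the widest gap. Its log2 ratio ran from -7.85 through a median of -4.26 to -1.99 in 8 parr, and from -6.70 through -4.40 to -1.68 in 53 smolts. In 14 spring fish it ran from -7.00 through -3.66 to -0.49. In 66 summer fish it ran from -4.73 through -0.31 to 2.57. Most of the difference thus lay between spring and summer, and the ranges overlapped. In 71 fall fish it ran from -3.22 through -0.42 to 4.44, and in 12 winter fish from -3.02 through 0.42 to 1.91. Its means in these 3 stages lay close together, at -0.36 ± 1.45, -0.24 ± 1.5 and -0.07 ± 1.46 (SD). Of 149 later ocean fish with a value, 80 lay above every parr, smolt and spring fish.

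C230R165 had the second widest gap. It ran from -6.92 through a median of -5.74 to -1.03 in 8 parr, and from -6.53 through -2.91 to 1.25 in 54 smolts. In 14 spring fish it ran from -7.40 through -3.55 to -2.67. Smolts were thus spread widely, and some of them reached the level of summer fish. Its values ran from -4.44 through -1.26 to 1.74 in 67 summer fish, from -2.77 through 0.22 to 3.15 in 71 fall fish, and from -0.37 through 2.0 to 3.82 in 12 winter fish. Its means in these 3 stages lay further apart than those of C262R149, at -1.08 ± 1.37, 0.16 ± 1.34 and 1.82 ± 1.31 (SD). All 12 winter fish and 69 of 71 fall fish lay above every spring fish, whereas 24 of 150 later ocean fish lay above every parr, smolt and spring fish.

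The stage difference was also looked at among fish of like source. These fish entered the stage means that chose the members, so the direction was largely set by the choice. Among wild fish of the southern Strait in 2009, 143 of 146 members were higher in 11 summer than in 14 spring fish, with a median difference of 0.57. For 13 fall fish against the same spring fish it was 145 members, with a median of 0.92. Within the stock labelled ECVI, all 146 members were higher in 16 summer than in 8 spring fish, with a median of 1.09. Within the stock labelled Fraser, 144 were higher in 25 summer fish than in 16 smolts, with a median of 0.70. For the stock labelled S_Main, with 15 summer fish and 20 smolts, 144 were higher and the median was 0.97. Over all probes these medians lay between -0.01 and 0.06. Within the Chilliwack stock of 2008, 76 of 146 members were higher in 8 wild smolts than in 8 hatchery parr, and the median difference was 0.02.

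Slides that held both kinds of fish were looked at in the same way, and their fish also entered the stage means. On 17 slides with smolts and later ocean fish, all 146 members were higher in the later fish by the mean over slides, with a median of 0.74, and 16 of the 17 slides had a median above 0. On 7 slides with spring and later ocean fish, all 146 were higher, with a median of 1.07, and all 7 slides had a median above 0.

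Single fish departed from their stage by more than the stage means show. The mean over the members in a fish was -1.23 ± 0.55 (SD) in parr, -0.94 ± 0.56 in smolts and -1.05 ± 0.59 in spring. It was -0.01 ± 0.57 in summer, 0.08 ± 0.49 in fall and 0.38 ± 0.17 in winter. No parr, smolt or spring fish was above 0, the highest being a spring fish at -0.01, and 100 of 150 later ocean fish lay above all of them. These were 42 of 67 summer, 46 of 71 fall and all 12 winter fish. The other summer and fall fish reached far down: 11 summer fish were below -0.8 and 39 at or above 0.2, with 17 in between. All of these 11 were from the west coast or the southern Strait, and none from the middle or northern Strait. Spring fish were all from the southern Strait, and the part of catch place in the stage values was not tested. In fall 3 fish were below -0.8 and 38 at or above 0.2, with 30 in between. Winter fish had the narrowest spread, from 0.05 to 0.59.

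The mean over the members was also set against slide and catch site. Among summer fish, 30 slides took up 70.7% of its sum of squares, where that many groups take up 43.9% on average with no slide effect. The 35 catch sites took up 82.4%, against 51.5% by their number alone. Among fall fish 34 slides took up 77.5%, against 47.1%. The 41 fall sites took up 62.1%, near the 57.1% of their number alone. In summer, fish of the same site on different slides differed by a median of 0.16, and fish of different sites on the same slide by 0.15. Fish that shared neither differed by 0.45. In fall, fish of the same site on different slides differed by 0.55 and fish of different sites on the same slide by 0.22. Fall fish that shared neither also differed by 0.45, less than fish of 1 site on different slides. One fall site of the west coast had 8 fish: 3 on 1 slide had means of 0.26, 0.15 and 0.04, and 5 on 3 other slides had means between -0.85 and -0.37. Fish whose ratios were spread more widely over all probes had lower means, with a Spearman rho from -0.74 in parr to -0.40 in spring. The part of slide, site and array spread in the stage values was not tested.

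Members moved together within stages to different degrees. After each stage's mean was taken out, the median correlation of a pair of members over the 226 fish was 0.28, against 0.00 for pairs of all probes, and fish of a slide share part of it. The first axis of the members held 38.9% of their variance within stages, and the second 6.87%. The correlation of a member with the mean of the other members was at least 0.5 in 91, below 0.3 in 36 and below 0 in 14, with a range from -0.30 to 0.92. C183R117, which comes up in the smolt comparisons, was at the upper end with 0.92, and C198R089 at the lower end with -0.30. C262R149 and C230R165 had 0.33 and 0.44. The list thus held a large block that varied together and a smaller set that did not. The members also varied more within stages than other probes, with a median SD from 0.56 in winter to 0.95 in spring, against 0.43 and 0.58 over all probes. All members were chosen for 1 direction and a wide gap, unlike the probes they are set against here. How much of the shared variation and of the larger SD comes from the choice was not tested.

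Differences within a stage were not the contrast of the rule and were tested with limma, slide being a random block, and a probe was called at an adjusted p (Benjamini-Hochberg, over every probe tested) below 0.05. Smolts are a partial exception, and groups at sea can be too, because large groups weigh most in a stage mean. A probe that is low in a large smolt group has a lower smolt mean, and without the Capilano hatchery smolts the rule found 93 probes, of which 87 were among the 146. A test over the 6 smolt groups of river and origin called 127 of 146 members, while it called 60.7% of all probes. Without smolts 23 and 26 it called 130 members and 67.4% of all probes. Without the 10 Capilano hatchery smolts it called 74 members and 26.4% of all probes.

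Wild Salmon River smolts stood highest and Capilano hatchery smolts lowest. The median member mean was -0.00 in 7 Salmon River smolts and -1.38 in 10 Capilano hatchery smolts. It was -0.45 in 10 wild Capilano, -0.75 in 10 Puntledge hatchery, -0.85 in 9 Chehalis hatchery and -1.03 in 8 wild Chilliwack smolts. Salmon River smolts held the highest of the 6 group means for 97 members, and Capilano hatchery smolts the lowest for 89. The like shares of all probes were not worked out. The mean over the members in single Salmon River smolts ran from -0.42 to -0.05. Medians over all probes lay between -0.06 and -0.01 in the 6 groups. Only 7 pairs of smolts from different rivers shared a slide, and the Chilliwack smolts were of another year. Slides took up 63.7% of the sum of squares of the mean over the members, against 41.5% by their number alone. River, year and slide can thus hardly be told apart.

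C230R165 had the largest range of group means among the called members, 4.51 (limma's moderated F test, adjusted p = 5.91e-07). It ran from -6.53 through a median of -5.52 to -4.13 in Capilano hatchery smolts and from -3.44 through -0.29 to 1.25 in Puntledge hatchery smolts. These 2 hatchery groups did not overlap, and the other 4 groups had means from -3.54 to -1.38. C147R112 followed with a range of 4.25 (limma's moderated F test, adjusted p = 4.14e-08). It ran from -4.20 through -3.24 to -2.25 in Capilano hatchery smolts and from 0.31 through 1.23 to 1.86 in Salmon River smolts. Without the Capilano hatchery smolts the range of the fitted group means of C230R165 was 2.38 (limma's adjusted p = 0.0127), against 4.45 with them. For C147R112 it was 3.5 (limma's adjusted p = 0.000104), against 4.3. Without smolts 23 and 26 the F test gave adjusted p of 5.03e-07 for C230R165 and 3.9e-09 for C147R112. The lowest group of C147R112 was thus also that of Capilano hatchery fish, but its highest was the wild Salmon River group, which C230R165 had at -2.19 ± 0.90 (SD, n = 7).

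The Capilano River gave hatchery and wild smolts of the same year, so hatchery and wild fish could be compared within 1 river. Hatchery minus wild, 94 members were lower and 8 higher. Of all probes 49.4% were called, 24.8% lower and 24.6% higher. The median difference was -0.95 over members and 0.03 over all probes. The surplus of lower members was partly set by the choice, because low values in these hatchery smolts lower the smolt mean. Without the Capilano hatchery smolts the rule found 93 probes, of which 87 were among the 146. How much of the surplus comes from the choice was not tested. Without smolts 23 and 26, 103 were lower and 10 higher, and 60.1% of all probes were called. The hatchery and wild arrays shared no slide, so origin and slide cannot be told apart here, and hatchery fish were longer (11.6 against 10.3 cm).

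C235R085 ran from -3.78 through a median of -3.22 to 0.83 in 10 hatchery smolts and from -1.58 through 1.22 to 2.59 in 10 wild smolts. Of the hatchery smolts, 9 lay below every wild smolt, and the one at 0.83 was smolt 23. The difference was -3.88 (SE 0.60, limma's adjusted p = 0.00011), and -4.48 (adjusted p = 3.86e-10) without smolts 23 and 26. C183R117 ran from -4.36 through -3.86 to -1.79 in hatchery and from -3.09 through -0.17 to 1.45 in wild smolts, again with 9 hatchery smolts below every wild one. Its difference was -3.29 (SE 0.56, limma's adjusted p = 0.000167), and -3.79 (adjusted p = 4.48e-08) without smolts 23 and 26.

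Among the 8 members that went the other way, C097R144 ran from -1.43 through a median of -0.58 to -0.17 in hatchery smolts and from -3.49 through -2.32 to -0.13 in wild ones. Its difference was 1.56 (SE 0.39, limma's adjusted p = 0.00264), and 1.65 (adjusted p = 0.00117) without those 2 smolts. C198R089 ran from -1.51 through 0.12 to 0.67 in hatchery and from -2.38 through -1.48 to -0.17 in wild smolts, with 7 hatchery smolts above every wild one. Its difference was 1.35 (SE 0.32, limma's adjusted p = 0.00168), and 1.5 (adjusted p = 0.000168) without them. Of the 14 members whose correlation with the others was below 0, 7 were called higher and none lower. Of the 91 with a correlation of at least 0.5, none was called higher and 83 lower. These counts describe how members grouped by their correlation over all fish, in which the Capilano smolts also enter.

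At sea, wild fish of 2009 from the west coast and from the Strait were compared per season. In summer 24 members were lower and 1 higher in 9 west coast than in 27 Strait fish. Of all probes 6.67% were called, 3.93% lower and 2.74% higher. The median difference was -0.57 over members and -0.03 over all probes. Strait fish made up 57 of 67 summer and 61 of 71 fall fish, so they weigh most in means that the rule needs high. The surplus of lower members can thus be partly set by the choice, and how much was not tested. No slide held summer fish of both areas, and the west coast arrays had fewer measured probes (19902 against 22026). By stock label, 8 of the west coast fish were Columbia and 1 North, whereas the Strait fish were Fraser, S_Main or ECVI. Area and stock therefore cannot be told apart in summer. Low values were not limited to the west coast. The mean over the members in a fish was -0.54 ± 0.72 (SD) in the 9 west coast fish and -0.41 ± 0.52 in 11 southern Strait fish. It was 0.27 ± 0.18 in 7 middle and 0.29 ± 0.26 in 9 northern Strait fish. With slide as a fixed block 0 members were called by a moderated t test, 6 having an unadjusted p below 0.05. Of all probes 0.0359% were called, and their share at that unadjusted p is not given here. As the areas compared shared no slide in summer, that fit could hardly separate area from slide. Nothing is drawn from its 0 calls. When the main fit also took up how many probes an array had measured, 4 members (and 2.2% of all probes) were called. This alternative was added after seeing the data.

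C239R099 ran from -2.68 through a median of -1.29 to -0.13 in 8 west coast fish and from -2.05 through 0.29 to 1.80 in 26 Strait fish (difference -1.51, SE 0.39, limma's adjusted p = 0.0153). C123R157 ran from -2.96 through -2.10 to 1.31 in 9 west coast fish and from -2.14 through 0.15 to 2.44 in 27 Strait fish (difference -1.5, SE 0.49, limma's adjusted p = 0.0479). C044R130 was the member that was higher, from -0.37 through 0.75 to 1.76 on the west coast against -0.97 through 0.10 to 0.99 in the Strait (difference 0.71, SE 0.20, limma's adjusted p = 0.0241). Groups overlapped for these 3 members. After quantile normalization none of these 3 passed, with differences of -1.43, -1.35 and 0.63 (limma's adjusted p = 0.0733, 0.103 and 0.0775). With slide as a fixed block the differences were -1.2, -2.87 and 0.80 (moderated t test, adjusted p = 0.773, 0.466 and 0.721).

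In fall 6 members were lower and none higher in 9 west coast than in 27 Strait fish. This was 4.11% of the members, and 4.45% of all probes were called, 2% lower and 2.45% higher. Of the stock labels only ECVI was found in both areas, with 2 of the west coast fish. West coast fish were longer (29.5 against 23.3 cm). With fork length as a covariate 0 members were called, 49 having an unadjusted p below 0.05, and 0.72% of all probes were called. The share of all probes at that unadjusted p is not given here, nor for the fit with fixed slides. With slide as a fixed block 0 members and 0% of all probes were called by a moderated t test, 4 members having an unadjusted p below 0.05. Only 1 slide held compared fall fish of both areas, so that fit could hardly separate area from slide. Nothing is drawn from its 0 calls. C191R156 ran from -3.40 through a median of -0.09 to 0.97 on the west coast and from -2.35 through 0.89 to 2.32 in the Strait (difference -1.74, SE 0.47, limma's adjusted p = 0.027). C212R066 ran from -1.67 through -0.76 to 0.40 on the west coast and from -1.75 through 1.21 to 1.99 in the Strait (difference -1.60, SE 0.46, limma's adjusted p = 0.0346). Both overlapped between areas. With fork length as a covariate the differences were -1.9 and -1.82 (limma's adjusted p = 0.0783 and 0.08). With slide as a fixed block they were -0.48 and -0.68 (moderated t test, adjusted p = 0.999 for both). The change of the area difference from summer to fall passed the limma test for 0 members and for 0.00595% of all probes. At an unadjusted p below 0.05 were 20 members, 13.7% against 9.18% of all probes.

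Wild fall fish of the Strait were compared between years. In 27 fish of 2009 against 8 of 2008, 12 members were higher and 1 lower. Of all probes 3.01% were called, 1.71% higher and 1.29% lower. The median difference was 0.48 over members and 0.02 over all probes. Most fall fish were of 2009, so the surplus of higher members can be partly set by the choice. How much of it was not tested. C259R059 ran from -3.21 through a median of 0.56 to 1.74 in 2009 and from -2.62 through -1.79 to -0.54 in 2008. In it 21 of 27 fish of 2009 lay above every fish of 2008 (difference 1.86, SE 0.49, limma's adjusted p = 0.0314). C092R132 ran from -0.86 through 0.64 to 2.19 in 24 fish of 2009 and from -2.35 through -1.18 to 0.73 in 2008 (difference 1.72, SE 0.31, limma's adjusted p = 0.00621). C198R089, also set apart in the Capilano smolts, was the member that was lower, from -1.38 through -0.22 to 0.89 in 2009 against -0.06 through 0.75 to 1.58 in 2008. Its difference was -0.90 (SE 0.26, limma's adjusted p = 0.0476), and after quantile normalization it was -0.80 (adjusted p = 0.105). No slide held fall fish of both years compared, so year and slide cannot be told apart. Stock and catch place also differed: none of the fish of 2008 was labelled ECVI or S_Main, which were among those of 2009. Of the 8 fish of 2008, 6 were from the middle Strait, against 10 of the 27 of 2009. The part of stock and place was not tested.

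Body length moved with stage, so length was also tested within stages, with catch area as a covariate at sea. In fall C152R036 alone among the members was called, against 0.0179% of all probes (3 probes). Its log2 ratio was higher by 0.23 per cm (SE 0.04, limma's adjusted p = 0.00339). This member varied apart from the others, with a correlation of 0.03. Its mean was -1.94 ± 1.08 in 8 parr, -3.00 ± 0.85 in 53 smolts and -2.01 ± 1.04 in 14 spring fish (SD). Later it was -0.75 ± 1.05 in 66 summer fish, 0.61 ± 0.88 in 71 fall fish and -0.15 ± 0.57 in 12 winter fish. Its highest stage mean was thus in fall, and the part of length in its stage means was not tested.

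In summer 139 of 146 slopes on length were positive, with a median of 0.05 per cm, but 0 passed the limma test. Many members moved together within stages, so like signs of slopes, here and below, are not separate observations. The shares of such signs over all probes were not worked out. In summer 28 members had an unadjusted p below 0.05, 19.2% of the members against 8.18% of all probes, and 0% of all probes were called. In fall 48 slopes were positive, with a median of -0.02. The slope was lower in fall than in summer for 132 members. In that interaction test by limma 0 members passed, and 0.00595% of all probes were called. At an unadjusted p below 0.05 were 34 members, 23.3% against 11.4% of all probes. Among smolts, within groups of river and origin, 0 members passed the limma test for length, and 0.00595% of all probes were called. There 5 members had an unadjusted p below 0.05, 3.42% against 3.61% of all probes.

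Condition factor, mass for a given length, was tested in fish with a recorded mass. In fall 123 of 146 slopes were negative, with 0 members past the limma threshold, 28 at an unadjusted p below 0.05 (19.2% against 14.0% of all probes), and 0.315% of all probes called. In summer 87 slopes were negative, 0 passed the limma test, and 0% of all probes were called. There 5 members had an unadjusted p below 0.05, 3.42% against 4.15% of all probes.

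Hatchery and wild fish were also compared at sea, in the Strait in 2009, and no member passed. In summer, with 25 hatchery and 27 wild fish, 0 members and 0% of all probes passed the limma test. At an unadjusted p below 0.05 were 3 members, 2.05% against 4.96% of all probes. The median difference, hatchery minus wild, was 0.16 over members and -0.01 over all probes. Of the hatchery fish 5 were from the southern Strait, against 11 of the wild fish. The mean over the members was -0.11 ± 0.64 (SD) in these hatchery and -0.41 ± 0.52 in these wild fish. The part of place and stock was not tested. In fall, with 26 and 27 fish, 0 members and 0% of all probes passed the limma test. At an unadjusted p below 0.05 were 7 members, 4.79% against 4.14% of all probes. The median difference was -0.08 over members and -0.003 over all probes. The change between the seasons passed for 0 members and 0% of all probes by limma, with 9 members at an unadjusted p below 0.05 (6.16% against 7.77%). The ocean comparisons did not include the fish compared at Capilano, and the difference between the smolt and the ocean results was not tested.

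Between males and females in summer and fall 0 members passed the limma test, and 0.00595% of all probes were called. At an unadjusted p below 0.05 were 4 members, 2.74% against 3.08% of all probes. In winter, with 7 males and 5 females, 0 passed the limma test, and 0.0179% of all probes were called. There 12 members had an unadjusted p below 0.05, 8.22% against 5.95% of all probes.

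Some members were called in more than one comparison. Of the members lower in Capilano hatchery smolts, 18 were also lower on the west coast in summer, which is 18 of 94 and 18 of 24, or 75.0% of the latter. Of all members 64.4% were lower in Capilano hatchery smolts. Over all probes, 51.1% of those lower on the west coast in summer were lower in Capilano hatchery smolts, against 24.8% of all. Likewise 11 were also higher in fall 2009, which is 11 of 94 and 11 of 12, and over all probes it was 75.0% of those higher in fall 2009. Lower on the west coast in summer and higher in fall 2009 were 3 members, which is 3 of 24 and 3 of 12 (12.5% and 25%). Over all probes these shares were 7.87% and 18.1%. Nothing particular to the members is drawn from these overlaps. These comparisons share no fish except the wild Strait fall fish of 2009, which enter the area fit and the year fit. In all, 16 members were called in no comparison. The like share of all probes was not worked out, and the smolt group test alone called 60.7% of them. Nothing is therefore read from this count.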

How the data were processed

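The authors deposited a log2 ratio for each probe of each array. Per the labels' protocols, liver RNA was amplified and every fish received the same Alexa dye, the reference pool another. How images were read and values normalized, and why cells are empty, is not given in the sources used here, nor are the log base and the numerator. These were taken from the values: regressed on its variance, a probe's mean had a slope of -0.364, and log2 of a sample over its pool gives -0.347. Array pairs correlated down to -0.46, with 427 of 25425 below -0.3. All fish carried the same dye, so the direction was kept. A duplicate of the values that also held control spots was not used.

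The members, lists and tests were chosen with earlier results of these data known. Stages came from the season label. Within stages, probes were fitted with limma 3.58.1 (lmFit, eBayes) in R 4.3.3 with slide as a random block (consensus correlation 0.186, from 3000 probes), and p-values were Benjamini-Hochberg adjusted over all probes tested (16802, or 16797 for the smolt groups), with a threshold of 0.05. Fits with slide as a fixed block were by least squares per probe, with limma moderating the variances only, and gave a moderated t test. At most 2 probes per direction and comparison were named: those with the widest gap, or the largest effects among called members. Condition factor left out fish whose mass was entered as 0 (23 in the table). No column of the table was without a sample. Each array was 1 fish. On simulated ratios, a change of 1 was recovered in 89.6% of 67 probes for origin in summer, 67.2% for area in summer, 43.3% for year and 28.4% for Capilano. A slope of 0.1 per cm was recovered in 37.3% of 67 probes for length in summer. The changed probes were drawn from all probes, whose median SD in summer was 0.53, against 0.85 for the members. These shares are therefore not those of the members. Few probes were changed in the simulation, whereas 49.4% of all probes were called at Capilano, so the simulated share does not describe that fit.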

Additional observations from a re-analysis of the deposited data

Results flagged for a closer look

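Values of the named members, and the mean over the members, were searched for a fish far from the rest in 42 groups of 4 to 10 fish, by Dixon's test at its 95% value. This found 6, and chance gives about 1 in 20 groups. Hatchery smolt 23 of the Capilano River gave 3 of them. It lay at 0.83 for C235R085, where the next hatchery smolt was at -1.94, at -1.79 for C183R117, where the next was at -3.23, and at -0.61 for the mean over the members, where the next was at -1.55. Wild smolt 26 of the same river lay at -1.36 for the mean over the members, and the next wild smolt was at -0.73. Both are the fish that did not resemble their own origin over the remaining probes. There smolt 26 resembled the other origin, and smolt 23 was close to neither. The other 9 hatchery smolts had means over the members between -1.76 and -1.55, and the other 9 wild smolts between -0.73 and -0.32.

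Among the 8 parr, 1 fish lay at -7.85 for C262R149, with the next at -4.66. Another parr lay at -1.03 for C230R165, with the next at -4.25, and the same parr had the highest mean over the members, -0.08.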

How the results depend on the processing

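The count of members differed by more than 1.5 times with stage medians (229 probes, 104 of them among the 146), with probes measured on all arrays (86, all among the 146) and without the Capilano hatchery smolts (93). Without those smolts 74 members (26.4% of all probes) were called between smolt groups, an alternative added after seeing the data. For area in summer, 25 calls (6.67% of all probes) became 13 with fork length (4.4%), 40 without the slide block (14.2%), 5 after quantile normalization (1.35%), 0 with slide as a fixed block (0.0359%) and 4 with the number of measured probes (2.2%), the last added after seeing the data. For area in fall, 6 (4.45% of all probes) became 15 without the slide block (10.2%) and 0 with fork length (0.72%) or with slide as a fixed block (0%). Without the slide block, 1 member was called for the change of the area difference (0.304%) and 30 between years (10.8%). With Strait fish of 2009 alone, 2 were called for length in fall (0.0595% of all probes). Under the alternatives run no direction turned, and the other 92 counts stayed within 1.5 times, but 66 of them were 0 before and after and say nothing of stability. For single named members, 64 values passed as before and 16 no longer did. The causes were not tested. Leaving out each winter fish in turn gave 0 calls for sex each time. Slide as a fixed block could not be fitted for smolt groups, Capilano or year, and for area it could hardly separate area from slide. No paired analysis was possible because every array was another fish and the order numbers pair no fish. What a fit could recover differed: at a change of 0.5 it was 5.97% of 67 simulated probes for Capilano, 37.3% for origin in summer and 79.1% for sex. Those probes were drawn from all probes, not from the members.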

Other observations

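Members were measured more often than other kept probes: 58.9% of them had a value on all arrays, against 42.7% of the 16802 probes. In wild west coast fish of 2009 set against all spring fish, 123 of 146 members were higher in 9 summer fish, with a median difference of 0.44, and 144 in 9 fall fish, with a median of 0.76. In the stock labelled ECVI, spring fish stood below smolts in the median member (difference -0.24, 8 and 10 fish), with 48 of 146 members higher in spring, and 125 members were higher in 20 fall fish than in those smolts.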
